A study of Homo sapiens with 6 samples.

Results

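The platelet-derived growth factor (PDGF) family in these data consists of 7 genes, the ligands PDGFA, PDGFB, PDGFC and PDGFD and the receptor genes PDGFRA, PDGFRB and PDGFRL. They were taken by symbol from a table of 26255 genes, in which all 7 were found. The libraries came from MDA-MB-231, a mesenchymal-like line of human breast cancer cells, which had been infected with lentivirus carrying either a control hairpin (shNT, 3 libraries) or a hairpin against GPR81 (labelled shGPR81, 3 libraries), and both groups had been selected with puromycin. The study made its shGPR81 lines with either of 2 hairpins, and neither the labels nor the methods say which one the sequenced cells carried. GPR81, the product of HCAR1, is a receptor for lactate. The comparison asked how expression differed between shGPR81 and shNT cells. From the same sequencing the study reported PDGFRB among the cell motility genes that it found decreased with the GPR81 hairpin.

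PDGF ligands act as disulfide-linked dimers that bring receptor tyrosine kinases together on the cell surface. PDGFA, PDGFB and PDGFC bind the receptor encoded by PDGFRA, while PDGFB and PDGFD bind the one encoded by PDGFRB. PDGFA and PDGFB are trimmed inside the cell by furin-like proteases, whereas PDGFC and PDGFD are secreted with a CUB domain that must be cut off before they bind. PDGFRL encodes a receptor-like protein without a kinase domain. In breast tumors, carcinoma cells are known as a source of the ligands, and fibroblasts and pericytes as the usual carriers of the receptors.

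The values are FPKM (fragments counted per kilobase of transcript and scaled to the library's depth), so that levels can be compared between genes per length. Differences are fitted on log2(FPKM + 0.1), which understates the change of genes with low values. Genes with at least 0.1 FPKM in 3 or more libraries were tested, and a gene is said to be called, or to have risen or fallen, when its p from limma, adjusted over all tested genes, was under 0.05 and its fold change above 1.5. Depth is not given with the files. For 5448 genes the values could be turned back into whole reads, which gave relative depths of 1 to 1.07 and, with annotated transcript lengths, an estimated 12077426 to 12919454 reads per library. These stand for depth only if the values were scaled by each library's own total, which the sources used here do not say. The same holds for read ratios corrected for depth. HCAR1 itself stood at 37, 40 and 52 reads in shNT and at 40, 36 and 16 reads in shGPR81. The groups overlapped and HCAR1 was not called (difference on the log2 scale -0.57, SE 0.31, adjusted p = 0.38, limma). Its summed reads had a depth-corrected ratio of 0.677 (Clopper-Pearson interval 0.513 to 0.892, counting error only). Without shGPR81 replicate 3 the log2 difference was -0.22. By RT-qPCR and western blotting the study found GPR81 reduced in its shGPR81 lines. The size of the reduction in the sequenced cells is not settled by these reads, so shGPR81 below is the label of the libraries. Markers of the line were present, with VIM at 3211 to 4443 FPKM over the 6 libraries. ESR1, PGR and CDH1, which such cells lack, were listed at 0 throughout, whereas the epithelial genes EPCAM and CLDN4 were present at 5.20 to 6.86 and 28.3 to 36.5 FPKM.

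The 150 bases before the RefSeq start of PDGFRB and before the downstream one of 2 listed starts of PDGFRA are shown because these genes encode the kinase receptors of the family, of which the first was measured at about 1 FPKM and the second was almost without reads. Capitals mark the CCAAT box, the letters GGGCGG of the GC box, and the related word CCACCC, each on either strand and with no overlap between them here. The PDGFRB stretch lies at chr5:150155846-150155995 on the minus strand and that of PDGFRA at chr4:54233810-54233959 on the plus strand of GRCh38.p14.
PDGFRB: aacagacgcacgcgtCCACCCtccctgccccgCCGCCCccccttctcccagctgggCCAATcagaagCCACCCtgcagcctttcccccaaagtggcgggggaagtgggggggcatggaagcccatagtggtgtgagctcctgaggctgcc
PDGFRA: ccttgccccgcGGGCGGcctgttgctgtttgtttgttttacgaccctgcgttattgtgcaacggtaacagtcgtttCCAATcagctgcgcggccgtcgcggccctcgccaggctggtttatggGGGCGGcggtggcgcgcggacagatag
CCAAT began 94 bases before the start in PDGFRB and 74 bases before it in PDGFRA. PDGFRB also held CCACCC at 135 and 83 bases and GGGCGG on the opposite strand at 118 bases, and PDGFRA held GGGCGG at 139 and 27 bases. Of 35116 RefSeq promoter windows of 250 bases before a start, 32% held CCAAT, 42.6% GGGCGG and 31.3% CCACCC on either strand, so each is a common word. The other window of PDGFRA held none of the 3. RefSeq promoter sequences were matched for 4 of the 7 members (PDGFA, PDGFD, PDGFRA and PDGFRB).

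MDA-MB-231 cells expressed a broad set of ligands and little of the kinase receptors. The order of the mean levels was the same in both groups: PDGFC, PDGFA, PDGFD, PDGFRL, PDGFRB, PDGFB and PDGFRA. In shNT no neighbours in this order overlapped in FPKM, although the lowest PDGFA value (5.66) was close to the highest PDGFD value (5.63). In shGPR81 PDGFA (5.70 to 7.25 FPKM) and PDGFD (5.32 to 6.19 FPKM) overlapped and the other neighbours did not.

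**Figure D1:**
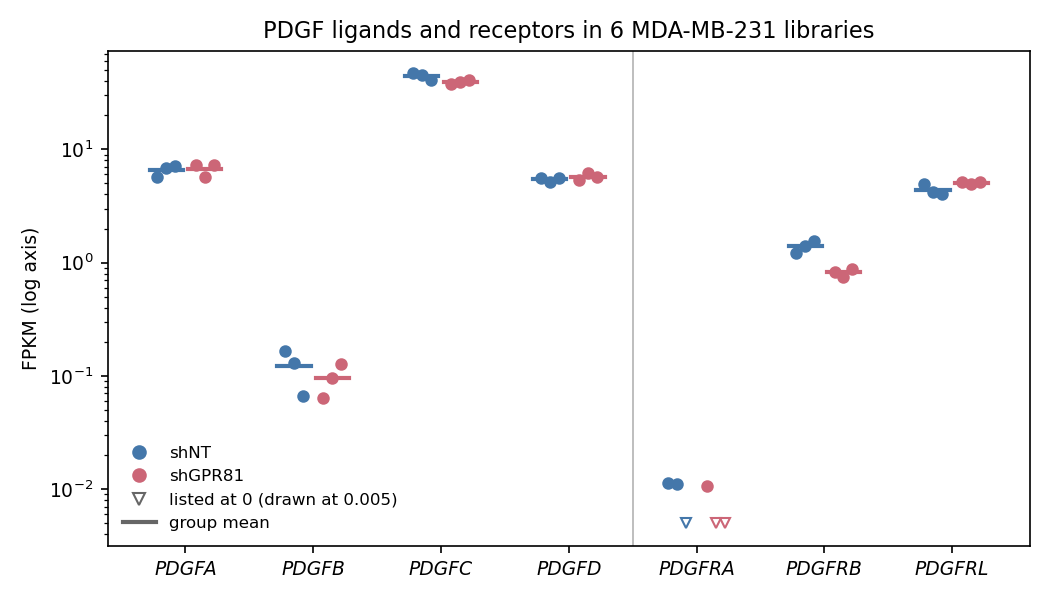
FPKM (log axis) of the 7 genes in 3 shNT and 3 shGPR81 libraries, with points for libraries, bars for group means and open triangles for values listed at 0. PDGFC stands highest at 37.8 to 47.0 FPKM, PDGFRA lowest, and PDGFRB is the receptor gene whose shGPR81 points all lie under the shNT points.

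Of the 7 members 6 were tested, all but PDGFRA. PDGFRB was called, lower in shGPR81, so that 1 of 6 was lower and 0 were higher. Across all 14349 tested genes 2.54% were called, 1.59% lower and 0.955% higher. Groups without overlap were seen in 3 of the 6 members (PDGFC, PDGFRB and PDGFRL), against 25.6% of all tested genes. Members had a median log2 fold change of -0.06 and all tested genes one of 0.01. Because PDGFRB had been picked by the study from these libraries, its call is no independent evidence about the family.

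Among the ligands, PDGFC was the most abundant. The gene spans 211346 bases on chromosome 4 of GRCh37 (157681606 to 157892951, minus strand), the build of all gene positions given here. It was at 47.0, 45.0 and 40.9 FPKM in shNT and at 37.8, 39.2 and 40.8 FPKM in shGPR81. The groups did not overlap, but the lowest shNT library and the highest shGPR81 library lay side by side (40.86 and 40.83 FPKM). The log2 fold change of -0.17 had a 95% interval of -0.32 to -0.018 (SE 0.07), and the adjusted p of 0.208 (limma) did not pass. PDGFC made up 78.5% ± 2.14 (SD, n = 3) of the summed ligand FPKM in shNT and 75.8% ± 0.805 in shGPR81. The groups overlapped slightly, with shNT replicate 3 at 76.2% and shGPR81 replicate 2 at 76.6%. By exact two-sided permutation test p was 0.2, where 0.1 is the smallest that 3 libraries against 3 allow.

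PDGFA, on chromosome 7 (536895 to 559933, minus strand), was at 5.66, 6.84 and 7.09 FPKM in shNT and at 7.25, 5.70 and 7.23 FPKM in shGPR81. Each group held 1 library near 5.7 FPKM and the groups overlapped. Its log2 fold change was 0.04 (SE 0.13, 95% interval -0.26 to 0.34, adjusted p = 0.908, limma). The sign was not stable, since it turned negative when shNT replicate 1, shGPR81 replicate 1 or shGPR81 replicate 3 was left out (-0.058, -0.017 and -0.016).

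PDGFD, on chromosome 11 (103777917 to 104035107, minus strand), was at 5.62, 5.15 and 5.63 FPKM in shNT and at 5.32, 6.19 and 5.70 FPKM in shGPR81. These overlapped, and the log2 fold change was 0.07 (SE 0.09, 95% interval -0.14 to 0.27, adjusted p = 0.754, limma). PDGFB, on chromosome 22 (39619364 to 39640987, minus strand), was the ligand near the limit of detection. It was at 0.167, 0.130 and 0.0667 FPKM in shNT. In shGPR81 it was at 0.0642, 0.0948 and 0.126 FPKM, overlapping shNT through shNT replicate 3 alone. Its 95% interval, -0.92 to 0.59 on the log2 scale, reached past a 1.5-fold change downward and to 1.5-fold upward (log2 fold change -0.17, SE 0.32, adjusted p = 0.835, limma). Thus PDGFB, the ligand that binds both kinase receptors, was the one measured least precisely, and the intervals of PDGFA, PDGFC and PDGFD all lay within a 1.5-fold change.

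PDGFRB was the member that fell. The gene has 23 exons in its longest annotated transcript and lies on chromosome 5 (149493402 to 149535435, minus strand). It was at 1.21, 1.40 and 1.55 FPKM in shNT and at 0.824, 0.747 and 0.883 FPKM in shGPR81. Every shGPR81 library was below every shNT library. The means were 1.39 ± 0.171 and 0.818 ± 0.0684 FPKM (SD, n = 3), a difference of -41.0% in FPKM. The log2 fold change was -0.69 (SE 0.15, 95% interval -1.05 to -0.34, adjusted p = 0.0470, limma). With 3 libraries against 3 the exact permutation test (two-sided) cannot go below p = 0.1, which it reached. In bulk RNA, fewer cells with a transcript and less transcript per cell cannot be told apart.

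PDGFRB rested on 92, 109 and 118 reads in the shNT libraries, against 67, 60 and 71 in the shGPR81 libraries. After correction for depth the ratio of the summed reads was 0.589 (95% Clopper-Pearson interval 0.491 to 0.706, counting error only). The call itself lay close to its threshold. It held in 3 of 13 alternative settings, namely without shNT replicate 1 (adjusted p = 0.0384, limma), after median centring (0.0479) and after quantile normalization (0.0499). It was lost without shNT replicate 2 (0.155), shNT replicate 3 (0.128), shGPR81 replicate 1 (0.148), shGPR81 replicate 2 (0.160) or shGPR81 replicate 3 (0.105), and with the replicate number as a block (0.0734). It was also lost with a filter of 1 FPKM (0.0580), with no filter (0.0778) and with a pseudocount of 0.01 (0.0504). The log2 fold change was negative in all 13, between -0.78 and -0.39, and at a pseudocount of 1 it was -0.39, which ended the call by falling short of 1.5-fold (0.0357).

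**Figure D2:**
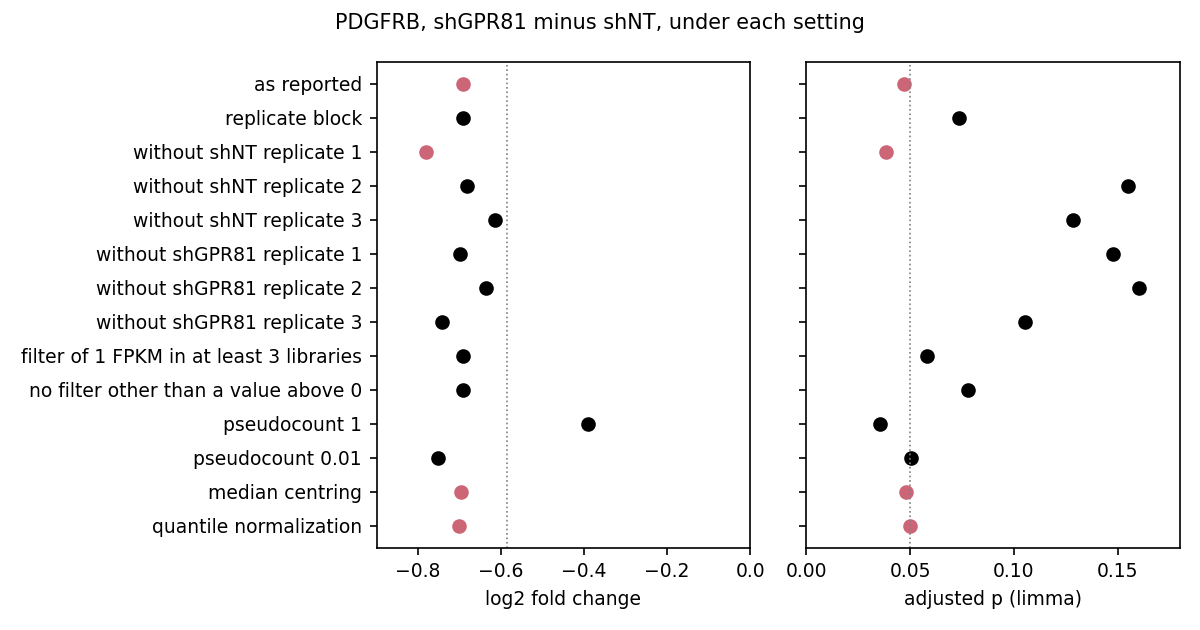
Log2 fold change of PDGFRB (left, dotted line at a 1.5-fold change) and its adjusted p from limma (right, dotted line at 0.05) as reported and under 13 alternative settings, with colored points where both thresholds were passed. All fold changes are negative, and the adjusted p crosses 0.05 in both directions, from 0.0357 to 0.160.

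PDGFRA, on chromosome 4 (55095447 to 55164412, plus strand), was almost without reads. It was at 0.0114, 0.0111 and 0 FPKM in shNT and at 0.0106, 0 and 0 FPKM in shGPR81, which stand for 1 read in each library with a value above 0. It did not reach the filter of 0.1 FPKM and was not tested, and a difference was not detectable at this depth. PDGFRB was therefore the kinase receptor of the family with a measurable level, and in both groups it stood below 3 of the 4 ligands.

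PDGFRL, on chromosome 8 (17433942 to 17501580, plus strand), was at 4.95, 4.21 and 4.01 FPKM in shNT and at 5.18, 4.97 and 5.13 FPKM in shGPR81. The groups did not overlap, by a margin of 4.95 against 4.97 FPKM. Its log2 fold change was 0.22 (SE 0.10, 95% interval -0.018 to 0.45), and the adjusted p of 0.295 (limma) did not pass. The reads were 116, 101 and 94 in shNT and 130, 123 and 127 in shGPR81, a depth-corrected ratio of 1.16 (95% Clopper-Pearson interval 0.996 to 1.35). The last 277 bases of PDGFRL overlap MTUS1 on the opposite strand, and reads from the pair cannot be told apart if strand was not used in counting. For MTUS1 the log2 fold change was -0.28 (SE 0.10) and the adjusted p 0.171 (limma).

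**Figure D3:**
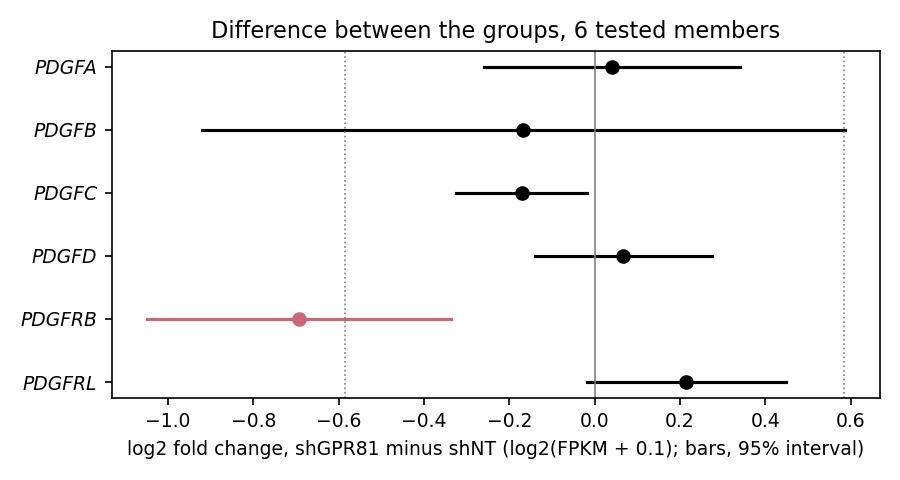
Log2 fold change (shGPR81 minus shNT) of the 6 tested members with its 95% interval from limma, with dotted lines at a 1.5-fold change. The interval of PDGFRB runs from -1.05 to -0.34 and that of PDGFB, from -0.92 to 0.59, is the widest of the 6.

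Relative to PDGFRB, PDGFRL, PDGFD and PDGFC stood higher in shGPR81. The ratio of PDGFRL to PDGFRB in FPKM was 4.09, 3.01 and 2.58 in the shNT libraries and 6.30, 6.65 and 5.80 in the shGPR81 libraries. The ratio of PDGFD, a ligand of the receptor, to PDGFRB was 4.64, 3.68 and 3.63 in shNT and 6.46, 8.29 and 6.45 in shGPR81. For PDGFC, the ratio to PDGFRB was 38.8, 32.1 and 26.3 in shNT and 45.9, 52.5 and 46.2 in shGPR81. Each of these ratios was higher in every shGPR81 library than in any shNT library. By exact two-sided permutation on the log2 scale p was 0.1 for each, and 0.18 after Benjamini-Hochberg adjustment over the 9 shares, sums and ratios compared. They share PDGFRB as denominator and are not separate results.

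The genes beside PDGFRB were not called. Its nearest tested neighbours were CSF1R, whose nearer edge, its 5′ end, lies 467 bases away, and TCOF1, at 201.8 kb. CSF1R encodes the receptor for colony-stimulating factor 1 and is related to PDGFRB in sequence. It was at 0.607, 1.01 and 1.15 FPKM in shNT and at 0.860, 1.11 and 1.0 FPKM in shGPR81, which overlapped (log2 fold change 0.12, SE 0.24, adjusted p = 0.834, limma). TCOF1 had a log2 fold change of -0.05 (SE 0.08). Aside from MTUS1, which overlaps PDGFRL, the nearest tested genes on each side of a member lay up to 806.5 kb away (CTSO from PDGFC). Beside PDGFA were FAM20C and PRKAR1B, beside PDGFB CBX7 and RPL3, and beside PDGFC CTSO and GLRB. Beside PDGFD were DYNC2H1 and CASP4, beside PDGFRA CHIC2 and KDR, and beside PDGFRL SLC7A2 and PCM1. With CSF1R and TCOF1 these made 14 flanking genes. Their log2 fold changes lay between -0.50 (FAM20C, adjusted p = 0.0293, limma) and 0.50 (CTSO), and 0 of the 14 were called. At an adjusted p under 0.05 alone FAM20C was the 1 gene that passed.

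The genes whose values over the 6 libraries were most like those of PDGFRB were sought among the 11676 tested genes that averaged 1 FPKM or more. The measure was the root mean square difference of log2 values centred on each gene's mean, over 6 libraries. NXN came first (0.026), followed by MYBL2 (0.054), MYL9 (0.056), C20orf27 (0.058) and LOC100134868 (0.064). NXN, a thioredoxin-related protein, was at 36.8, 41.8 and 45.4 FPKM in shNT and at 25.7, 24.6 and 27.9 FPKM in shGPR81. Like PDGFRB it was lowest in replicate 1 within shNT, and its groups did not overlap. All of these but LOC100134868 were called lower. They were picked for values like those of PDGFRB in the same libraries, so their direction was set by the choice. Their calls are no separate evidence. The call of NXN held in all 13 alternative settings, that of MYL9 in 10, that of MYBL2 in 9 and that of C20orf27 in 7. With 1 library left out MYL9 lost its call in 3 fits, those lacking replicate 2 of shNT and replicates 1 and 2 of shGPR81, and MYBL2 in these 3 and in the one lacking replicate 3 of shNT. C20orf27 kept its call in 1 of the 6 such fits, the one without shNT replicate 1. MYBL2, MYL9 and C20orf27 (placed there by RefSeq under the symbol ADISSP) lie on chromosome 20, where the median over 368 tested genes was -0.39 on the log2 scale. None of the 7 members lies on that chromosome.

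The wider pathway was described with 96 genes in 6 lists by role, of which 86 were tested. PLAT was called higher and PGF lower, so that 2 of the 86 were called, a share near the 2.54% of all tested genes. An adjusted p under 0.05 (limma) was seen in 12 of the 86, 5 of them lower and 7 higher, beside 5.13% of all tested genes. The 86 had a median of 0.01 on the log2 scale, as all tested genes did. In 37 of the 86 the groups did not overlap, against the 25.6% given above.

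**Figure D4:**
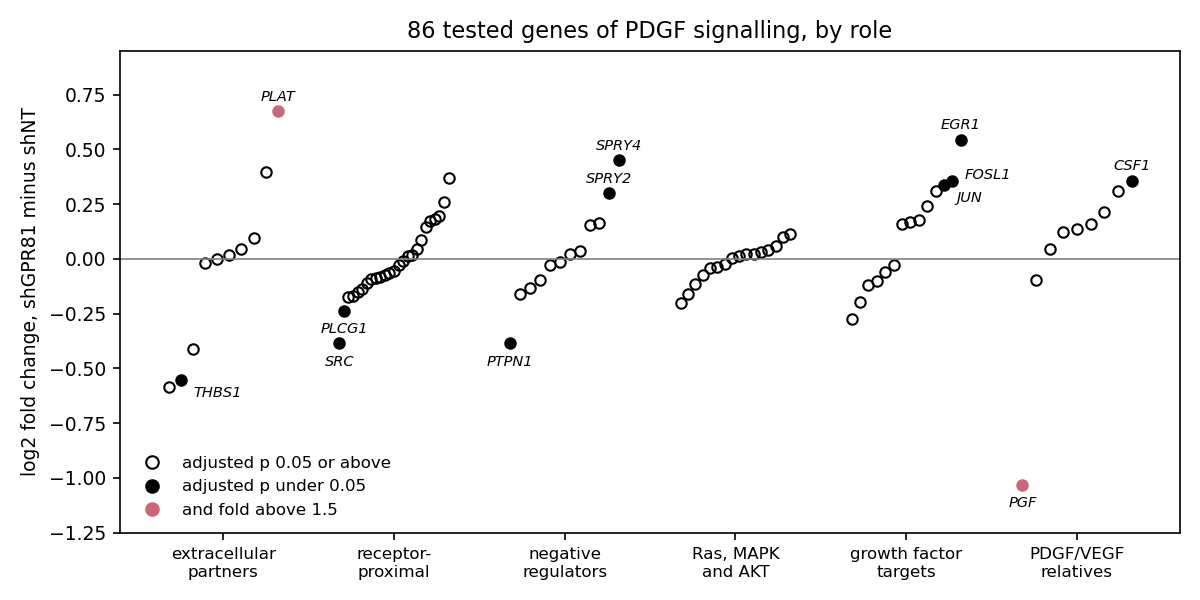
Log2 fold change (shGPR81 minus shNT) of 86 tested pathway genes in 6 lists by role, ordered by value within each list. Filled points have an adjusted p under 0.05 (limma), and the colored points PLAT and PGF also passed a 1.5-fold change.

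The list of ligand partners held 12 genes that trim PDGF, inside or outside the cell, or bind it, and 10 of them were tested. PLAT, the tissue-type plasminogen activator that removes the CUB domain of PDGFC, was at 66.2, 74.0 and 76.7 FPKM in shNT and at 112.1, 113.3 and 120.6 FPKM in shGPR81. All shGPR81 libraries were far above the shNT libraries. It rose by 0.67 on the log2 scale (SE 0.07, adjusted p = 0.0021, limma), and it was called in all 13 alternative settings. The ratio of PLAT to PDGFC in FPKM was accordingly 1.64 ± 0.234 (SD, n = 3) in shNT and 2.94 ± 0.0400 in shGPR81.

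PLAU, the urokinase that activates PDGFD, was more abundant still, at 139.9, 148.8 and 146.9 FPKM in shNT and 151.9, 155.3 and 158.8 FPKM in shGPR81. The groups did not overlap, yet the log2 fold change of 0.10 (SE 0.05) had an adjusted p of 0.314 (limma). ST14, encoding matriptase, which also cuts PDGFD, was low at 0.320 to 0.469 FPKM in shNT and 0.177 to 0.310 FPKM in shGPR81, from 50 and 31 reads in all (log2 fold change -0.58, SE 0.26, adjusted p = 0.271, limma). FURIN, the protease of PDGFA and PDGFB, was at 3.78, 5.20 and 5.49 FPKM and at 6.08, 5.90 and 6.96 FPKM. Its values were higher in every shGPR81 library, and the adjusted p of 0.198 did not pass (log2 fold change 0.40, SE 0.15, limma).

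NRP1, a neuropilin that serves PDGF as a coreceptor, was at 66.0 to 68.3 FPKM in shNT and 66.5 to 70.2 FPKM in shGPR81, a log2 difference of 0.02 (SE 0.05). LRP1, an endocytic receptor that is a partner of PDGFRB, was at 0.341 to 0.395 FPKM in shNT and at 0.210 to 0.295 FPKM in shGPR81. Those groups did not overlap, and the log2 fold change of -0.41 (SE 0.22) had an adjusted p of 0.363 (limma). THBS1, thrombospondin 1, a matrix protein that binds PDGF, was at 29.7 ± 1.14 FPKM in shNT and 20.2 ± 0.424 FPKM in shGPR81 (SD, n = 3). Its log2 fold change of -0.55 (SE 0.05, adjusted p = 0.0021, limma) stopped short of 1.5-fold. SPARC and A2M, which bind PDGF as well, did not reach 0.1 FPKM in 3 libraries.

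Inside the cell, 25 of 26 adaptors and enzymes that dock on the activated receptor were tested, and 0 were called in either direction. This list had a median log2 fold change of -0.06, from -0.38 (SRC) to 0.37 (RASA1, adjusted p = 0.0866, limma). SRC, the founding Src-family kinase, was at 20.9 ± 1.13 FPKM in shNT and 16.0 ± 0.760 FPKM in shGPR81 (SD, n = 3, adjusted p = 0.0183, limma). PLCG1, phospholipase C gamma 1, differed by -0.24 on the log2 scale (SE 0.05, adjusted p = 0.0374, limma). GRB7 was under the filter.

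Of 13 negative regulators 12 were tested and 0 were called. PTPN1, a tyrosine phosphatase that dephosphorylates PDGF receptors, was at the low end of the list at -0.39 on the log2 scale (SE 0.04, adjusted p = 0.0038, limma). SPRY4 and SPRY2, Sprouty inhibitors that are themselves induced by growth factor signaling, were at the high end. SPRY4 was at 33.7, 35.7 and 35.1 FPKM in shNT and at 47.8, 46.9 and 48.4 FPKM in shGPR81 (log2 fold change 0.45, SE 0.05, adjusted p = 0.0027, limma). The log2 fold change of SPRY2 was 0.30 (SE 0.05, adjusted p = 0.0198, limma). CBLC was under the filter. SRC, PLCG1 and PTPN1, the 3 genes of these lists that were lower at an adjusted p under 0.05 (limma), all lie on chromosome 20. Their log2 fold changes were -0.38, -0.24 and -0.39, beside the chromosome's median of -0.39. The part of the chromosome in these values was not tested.

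The 16 genes of the Ras, MAPK and AKT cascades were all tested. None was called or had an adjusted p under 0.05 (limma), and the log2 fold changes lay between -0.20 (BRAF, adjusted p = 0.358) and 0.11 (MAP2K2, adjusted p = 0.707). Among 14 genes that growth factors induce, 0 were called, while 3 had an adjusted p under 0.05 and were higher. EGR1, an early-response transcription factor, was at 6.19, 6.52 and 7.27 FPKM in shNT and at 9.96, 9.76 and 9.47 FPKM in shGPR81. On the log2 scale this was a difference of 0.54 (SE 0.08, adjusted p = 0.0103, limma), just under 1.5-fold, and it passed both thresholds without shNT replicate 3. FOSL1 (log2 fold change 0.36, adjusted p = 0.0436, limma) and JUN (0.34, adjusted p = 0.0326), which encode subunits of AP-1, were the others. DUSP1, a MAPK phosphatase, stood at the low end with -0.27 (SE 0.10, adjusted p = 0.165).

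The PDGF/VEGF superfamily and the receptors closest to PDGFRB gave 9 tested genes of 15. PGF, placental growth factor, a VEGF-family ligand with the same cystine-knot fold as PDGF, was at 12.1, 12.7 and 17.7 FPKM in shNT and at 6.71, 6.48 and 7.20 FPKM in shGPR81. It fell by 1.03 on the log2 scale (SE 0.14, adjusted p = 0.0081, limma) and was called in all 13 alternative settings. Its shNT libraries were spread more widely than its shGPR81 libraries and did not meet them. CSF1, a ligand of CSF1R, was at 52.2 ± 4.47 FPKM in shNT and 66.8 ± 2.47 FPKM in shGPR81 (SD, n = 3), 0.36 higher on the log2 scale (SE 0.07, adjusted p = 0.0327, limma) and below 1.5-fold. The receptor genes KIT, FLT3, FLT1 and FLT4 and the ligand genes IL34 and FIGF did not reach the filter. VEGFA, VEGFB and VEGFC, named here after their values were seen, were at 76.4 to 88.7, 39.8 to 49.7 and 13.1 to 16.2 FPKM over the 6 libraries, and none of them passed.

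Because PDGFRB is a marker of fibroblasts and pericytes, other markers of such cells were examined. Of 10 genes, COL1A2, LUM and DCN were listed at 0 in all 6 libraries, and COL3A1 and DES did not exceed 0.0355 FPKM in any library. The summed level of the list was 21.8 to 24.5 FPKM in shNT and 21.0 to 24.2 FPKM in shGPR81, mostly from THY1. The pericyte markers RGS5 and CSPG4 were not called. In shNT both had lower means than PDGFRB (1.39 FPKM). RGS5 was at 0.535 ± 0.0514 FPKM in shNT and 0.620 ± 0.220 FPKM in shGPR81 (SD, n = 3, log2 fold change 0.14, SE 0.25, limma). CSPG4 was at 0.999 ± 0.0751 and 0.976 ± 0.155 FPKM (log2 fold change -0.04, SE 0.17). Both overlapped between the groups. ACTA2, smooth muscle actin, was the 1 called gene of the list, while COL1A1, at 0.940 to 1.18 FPKM in shNT and 0.503 to 0.719 FPKM in shGPR81, was not called (log2 fold change -0.65, adjusted p = 0.102, limma). ACTA2 was higher in shGPR81, at 1.95 ± 0.377 and 4.25 ± 0.704 FPKM (SD, n = 3, adjusted p = 0.0124, limma). All 4 endothelial markers and PTPRC and CD3E of leukocytes were below the filter. CD68 and CD14 were tested and not called, although their groups did not overlap. CD68 was at 88.9 ± 11.3 FPKM in shNT and 117.8 ± 9.83 FPKM in shGPR81 (SD, n = 3, log2 fold change 0.41, adjusted p = 0.0691, limma). CD14 was at 3.38 ± 1.05 and 1.49 ± 0.312 FPKM (log2 fold change -1.10, adjusted p = 0.0562, limma).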

How the data were processed

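Total RNA of MDA-MB-231 cells was made into 6 stranded mRNA libraries and read as single-end reads of 75 bases. Per the study's methods the authors mapped the reads to human GRCh37 with TopHat2 2.0.13, Bowtie2 2.2.3 and SAMtools 0.1.19, whereas the labels name a mouse build; the symbols are human and the former was used. The submitters' processing notes add Cuffnorm 2.2.1. Its annotation, strand setting and library scaling are not given in the sources used here. The authors deposited 1 FPKM value per gene symbol and library, and no read counts.

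Values were tested as log2(FPKM + 0.1) with limma 3.58.1 (lmFit, eBayes with trend) under R 4.3.3. Genes entered the fit when 3 or more libraries reached 0.1 FPKM, which left 14349. P-values were adjusted by Benjamini-Hochberg over these genes. Calls used the study's thresholds, 1.5 for the fold change and 0.05 for the adjusted p, but the study applied them to read counts in iDEP, so input and tool differed here. For single members an exact two-sided permutation test (SciPy 1.17.1) was added. Nothing says that the libraries of a group came from separate cultures, so p-values measure only the spread between these libraries, which may be technical.

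Where a gene's FPKM in the 6 libraries were whole multiples of 1 step (relative tolerance 5e-05, at most 500 reads), those multiples served as its reads, which was possible for 5448 of 15931 genes. Pairs of replicates differed by 2.62 to 4.44 chi-square units per gene, above the 1 of pure counting noise. Read ratios carry exact intervals (Clopper-Pearson, 95%) that cover counting error only.

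The members and lists were chosen with earlier results of these data known. The text names the members, the targeted gene, pathway genes that were called or stood at the ends of their list, 6 partners of the ligands, the nearest tested genes on each side of a member, and the 5 genes most like a called member. Other genes with an adjusted p under 0.05 and the untested genes of the lists were named after their values were seen. Alternatives tried were the replicate number as a block, each library left out, other filters and pseudocounts, median centring and quantile normalization. Positions are those of GENCODE release 44 on GRCh37, and promoter sequences those of RefSeq on GRCh38.p14.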

Additional observations from a re-analysis of the deposited data

How the results depend on the processing

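Of the 7 PDGF genes, 0 were called with the replicate number as a block, with a filter of 1 FPKM, with no filter, and with a pseudocount of 1 or 0.01, and 1 (PDGFRB) after median centring and quantile normalization. With 1 library left out the count was 0 to 1. These settings all kept the direction of PDGFRB, and its calls are given with its values. The number of called pathway genes was 2 in each setting except without shNT replicate 3, where it was 3 with EGR1. Over all tested genes 365 were called, 217 at a pseudocount of 1 and 198 to 408 with 1 library left out (202 without shNT replicate 2, 198 without shGPR81 replicate 1, 201 without shGPR81 replicate 2). Libraries of the same replicate number were not treated as pairs, since their deviations from the group means correlated at 0.12, 0.022 and 0.0058 across genes, which are not independent replicates. With the block 312 genes were called, and the adjusted p of PDGFRB was 0.0734 (limma).

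Other log2 fold changes that turned negative were small: CSF1R (-0.12), MAP2K2 (-0.028) and RPL3 (-0.0012) without shNT replicate 1, PCM1 without shNT replicate 2 (-0.014), without shNT replicate 3 (-0.033), without shGPR81 replicate 2 (-0.022) and after quantile normalization (-0.0091), DYNC2H1 without shNT replicate 3 (-0.040), GLRB without shGPR81 replicate 1 (-0.0066), and KDR (-0.0067) and NRP1 (-0.0040) without shGPR81 replicate 2. PDGFA did so in 3 fits (-0.058, -0.017 and -0.016). With 1 library left out these genes reached at most 0.15 (PDGFA), 0.29 (CSF1R), 0.26 (DYNC2H1), 0.11 (GLRB), 0.28 (KDR), 0.23 (MAP2K2), 0.034 (NRP1) and 0.065 (PCM1). The cause was not tested. Depth limits PDGFB and PDGFRA, for which a difference was not detectable.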
